A study of Mus musculus with 8 samples.

Results

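Phase II conjugation enzymes of mouse liver were described here across the cell classes of 8 single-cell RNA libraries: glutathione S-transferases (GST), UDP-glucuronosyltransferases (UGT) and sulfotransferases (SULT). Members were the deposited genes whose symbol began with Gsta, Gstk, Gstm, Gsto, Gstp, Gstt, Gstz, Ugt1, Ugt2, Ugt3 or Sult and that held at least 10 unique molecular identifiers (UMIs, each counted as 1 captured RNA molecule) in the kept cells. Of 31053 deposited genes, 64 had such a symbol and 36 were members. These were 20 of 22 GST genes, the 20 holding 57844 UMIs, 7 of 21 UGT genes, the 7 holding 757 UMIs, and 9 of 21 SULT genes, the 9 holding 3980 UMIs. The libraries came from 4 mice on a diet abbreviated HFHC (high fat, high cholesterol in the series' design and high calorie in the sample titles) and 4 mice on control chow, 1 library per mouse. Per the labels, all 8 were male C57BL/6 mice that began their diet at 6 to 8 weeks of age and stayed on it for 20 to 32 weeks, and the livers were digested to non-parenchymal cells, cleared of dead cells, stained for CD45, CD31, CD146 and podoplanin, and sorted to enrich endothelial cells. Hepatocytes were therefore not the intended population, and the classes named below, each called after its markers with the ending "-like", were rebuilt from the counts because no cell annotation was used here.

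Phase II enzymes attach a water-soluble group to foreign compounds, bile pigments, steroids and lipid oxidation products so that they can leave the cell and the body. GSTs join glutathione to electrophiles, UGTs of the endoplasmic reticulum transfer glucuronic acid from UDP-glucuronic acid, and cytosolic SULTs transfer sulfate from PAPS. Hepatocytes carry most of this work in the liver, several of the genes are known targets of the oxidant sensor NRF2 and of the dioxin receptor AhR, and several differ between the centre and the edge of the lobule and between male and female mice.

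Most GST members lie in clusters of related genes, and the 7 genes of the mu cluster on chromosome 3 are all members. In the GRCm38 build (mm10, GENCODE vM21 annotation) Gstm5 lies at chr3:107895821-107898686 on the plus strand, and Gstm7, Gstm6, Gstm3, Gstm2, Gstm1 and Gstm4 follow it on the minus strand, from chr3:107926334-107931817 for Gstm7 to chr3:108040408-108044894 for Gstm4. Promoters of 4 members described below are shown, chosen after their values were seen: Gsta3, high in hepatocyte-like barcodes, Gstm5, highest in biliary and vascular classes, and the neighbours Gstm2 and Gstm3, of which Gstm3 was high in hepatocyte-like barcodes and Gstm2 was not. Other members differed by more between classes and between the hepatocyte-like barcodes of the 2 diets. Each runs 5′ to 3′ over 250 bases before and 50 bases after the gene start, from RefSeq on GRCm38.p6, in lower case with a match to TGACNNNGC, the core of the antioxidant response element that NRF2 binds, in capitals.
Gsta3 (chr1:21240335-21240634, plus strand): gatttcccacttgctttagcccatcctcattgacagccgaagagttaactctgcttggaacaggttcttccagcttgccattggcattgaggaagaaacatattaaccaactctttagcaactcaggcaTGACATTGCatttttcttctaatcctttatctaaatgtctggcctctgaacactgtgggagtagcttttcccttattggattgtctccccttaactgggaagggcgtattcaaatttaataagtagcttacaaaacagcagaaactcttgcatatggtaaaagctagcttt
Gstm5 (chr3:107895604-107895903, plus strand): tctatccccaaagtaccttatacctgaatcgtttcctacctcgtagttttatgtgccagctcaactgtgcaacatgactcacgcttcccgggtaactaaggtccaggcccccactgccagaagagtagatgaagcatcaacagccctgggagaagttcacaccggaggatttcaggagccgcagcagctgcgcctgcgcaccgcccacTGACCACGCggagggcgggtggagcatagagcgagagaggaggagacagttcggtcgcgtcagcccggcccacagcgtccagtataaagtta
Gstm2 (chr3:107986371-107986670, minus strand): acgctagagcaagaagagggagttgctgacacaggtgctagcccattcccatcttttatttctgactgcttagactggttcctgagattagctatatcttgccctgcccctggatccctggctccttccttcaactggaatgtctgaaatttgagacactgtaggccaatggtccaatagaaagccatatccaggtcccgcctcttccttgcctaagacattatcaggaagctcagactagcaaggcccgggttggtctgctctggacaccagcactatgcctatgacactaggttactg
Gstm3 (chr3:107969125-107969424, minus strand): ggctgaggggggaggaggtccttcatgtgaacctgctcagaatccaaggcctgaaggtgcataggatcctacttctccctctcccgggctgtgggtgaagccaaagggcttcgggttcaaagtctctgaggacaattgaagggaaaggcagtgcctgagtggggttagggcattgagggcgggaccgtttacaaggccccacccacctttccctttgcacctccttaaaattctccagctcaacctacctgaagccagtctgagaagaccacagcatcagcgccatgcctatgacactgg
Promoters were found for 32 of the 36 members, 42 promoters in all, and both strands were searched. TGACNNNGC matched in 3 members, Gsta3 (from position -121 relative to the gene start), Gstm5 (from position -42) and Gstm7. That was 3 of the 42 promoters, while 12.4% of all 32851 mouse promoters in the table held it. The letters GCGTG, the core that AhR binds, matched in 9 members, Gsta1, Gsta2, Gstm1, Gstm5, Gstp1, Gstp3, Sult1b1, Sult1d1 and Sult2b1. That was 11 of the 42 promoters, against 32.4% of all promoters. A match describes the letters of the window and no more.

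Because the counts came from the 3′ ends of transcripts, near-identical copies share reads. Over the last 500 transcript bases, 90.0% of the 50-base words of Gsta1 also occurred in another gene (Gsta2 or Gm3776), as did 51.0% of those of Gsta2, 75.2% of those of Gstp1 (Gstp2 and the pseudogene Gstp-ps) and 88.9% of those of Gstp2, so levels within these pairs are uncertain. The 9 Ugt1a genes, which overlap on the same strand, held 13 UMIs together and under 10 each, among them Ugt1a1, which conjugates bilirubin. For 8 of them all words were shared, while Ugt1a7c, with 8 of the 13 UMIs, shared 0%. Reads from shared ends cannot be assigned to 1 gene, so these counts do not measure the level of Ugt1a RNA. For 26 members no shared word was found. Gstt3 overlaps Gm20441 on the same strand.

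The 3416 deposited barcodes included 224 copies of a barcode also present in another library. These were removed from all but the library where the barcode had most UMIs, which left 3192. Control 1, control 2 and HFHC 1 to 3 shared 33 to 65 barcodes per pair, and other pairs at most 4. Kept libraries ranged from 47 to 857 cells and 304090 to 2309209 UMIs in HFHC mice, and from 55 to 875 cells and 170448 to 1775987 UMIs in controls. A class was summed in a library only where it held at least 10 cells, which gave 22 sums, and 344 cells stayed without a class. Hepatocyte-like barcodes were 71.1% of HFHC 3 and 65.7% of control 2 and were summed only there, and LSEC-like cells (liver sinusoidal endothelial cells) were summed in HFHC 4 and in controls 1 to 4. The library labelled control 4 held 282 Xist UMIs and 0 UMIs of Y-linked genes, against its male label. Hepatocyte-like barcodes carried 309 CPM (UMIs scaled to a common total for every sum) of the nuclear RNA Malat1 in HFHC 3 and 296 CPM in control 2, while all the other sums carried at least 16687 CPM, and whether they were intact cells was not tested.

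Hepatocyte-like barcodes held by far the most phase II RNA. The members summed to 19883 CPM in HFHC 3 and 23229 CPM in control 2, against 673 CPM in LSEC-like cells of HFHC 4 and 1059, 2159, 1223 and 810 CPM in those of controls 1 to 4. Levels between genes are compared here as CPM, which needs no length correction for 3′ counts but still depends on how well each 3′ end is captured. Gstm1, a mu GST, had 7174 CPM in hepatocyte-like barcodes of HFHC 3, where it led, and 5848 CPM in those of control 2. Gstp1, the pi GST, had 3036 CPM in HFHC 3 and 6457 CPM in control 2, where it led, and Gsta3, an alpha GST that detoxifies aflatoxin epoxide in mice, had 4045 CPM in HFHC 3 and 5280 CPM in control 2. These 3 genes made most of the GST signal, and the next was Gstz1, the zeta GST of tyrosine breakdown, at 1114 and 1088 CPM in the same libraries. Gstt1, a theta GST, followed with 526 CPM in both. Among SULTs, Sult1a1, a phenol sulfotransferase, had 601 CPM in HFHC 3 and 587 CPM in control 2, while Sult2a8, a sulfotransferase of mouse liver that acts on bile acids, had 189 CPM in HFHC 3 and 749 CPM in control 2. The UGT members, among them no Ugt1a gene, were low. Ugt2b36 led at 102 CPM in HFHC 3 and 128 CPM in control 2, and the other 6 stood between 4.52 and 64.8 CPM.

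**Figure D1:**
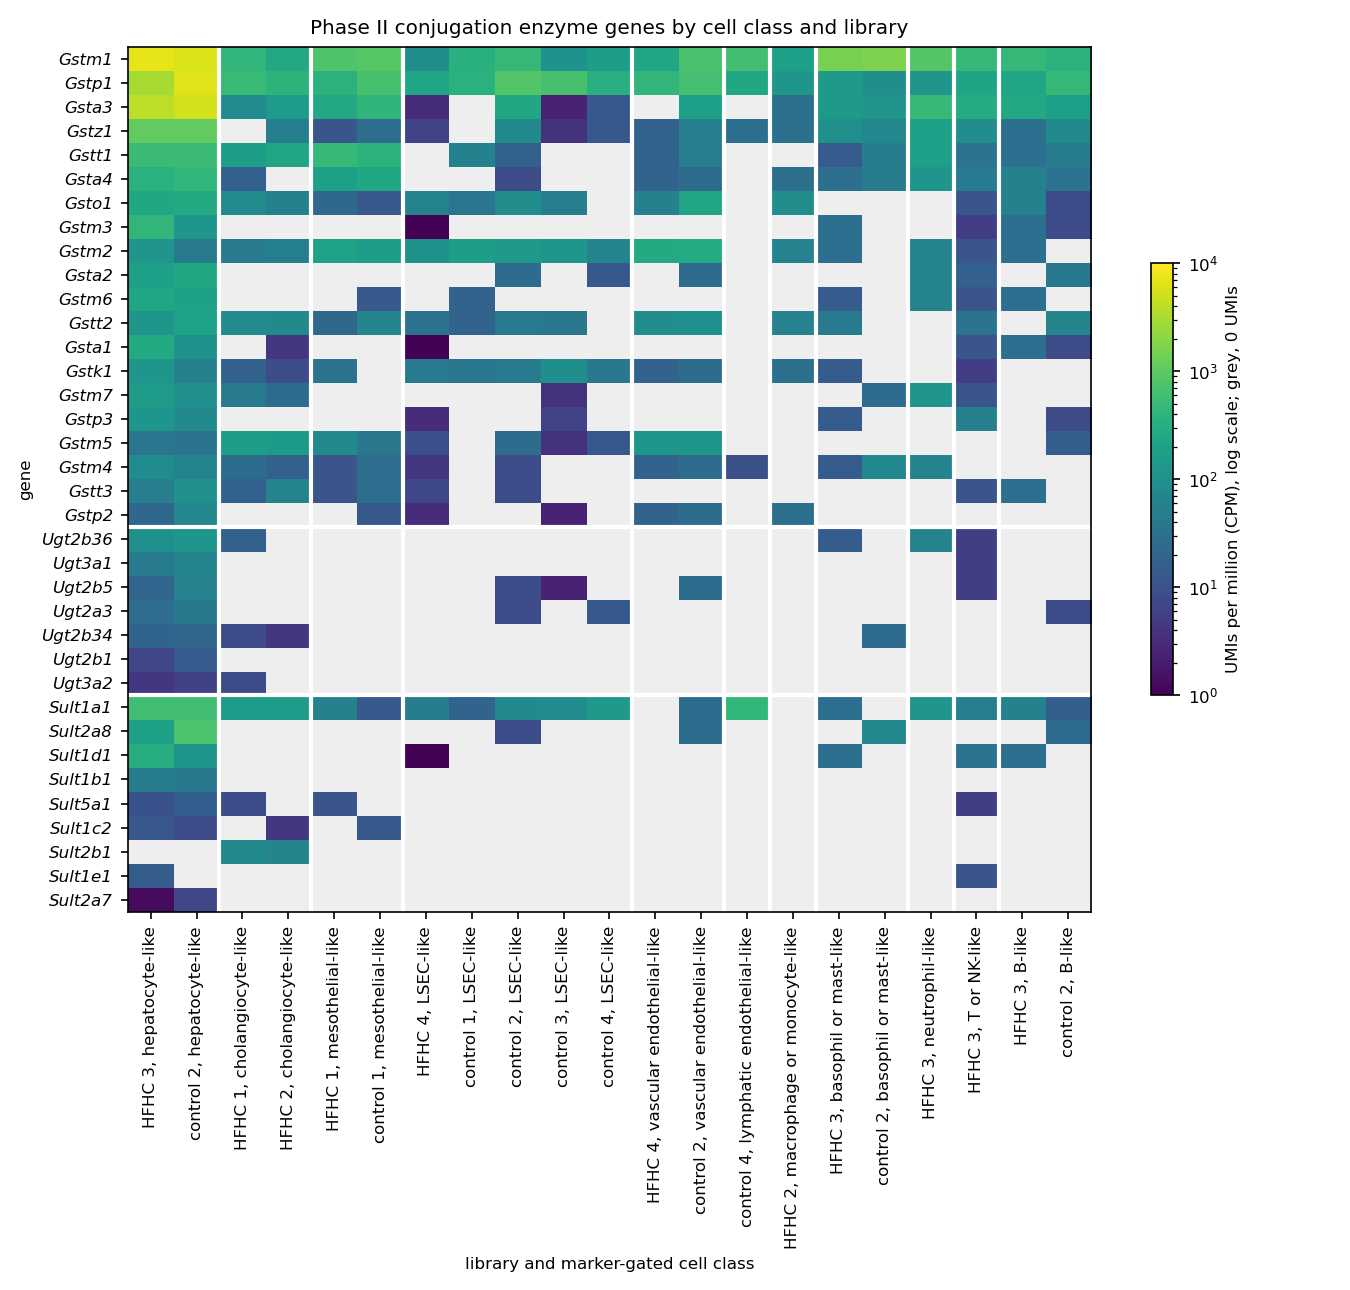
Level of the 36 members in each named cell class and library, as CPM on a log colour scale from dark blue (low) to yellow (high) with 0 UMIs in grey, GSTs above UGTs and SULTs, and HFHC libraries left of control libraries within a class. The 2 hepatocyte-like columns are the brightest for most members, Gstm2 and Gstm5 are brighter in vascular endothelial-like columns, and Sult2b1 is coloured in cholangiocyte-like columns only.

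Set against LSEC-like cells in edgeR's quasi-likelihood test with Benjamini-Hochberg adjustment over 4888 genes, 18 of 21 tested members were higher in hepatocyte-like barcodes and 0 were lower. The background was 25.3% of all genes higher and 21.1% lower, and the median log2 fold change was 5.38 over the tested members and 0.25 over all genes. The count and the median follow in part from how members were chosen and tested and support nothing on their own: all 18 had over 50% of their UMIs in hepatocyte-like barcodes, 6 of them over 90%, and 11 of the 18 had under 10 UMIs in the 5 LSEC-like sums together, so that of the 2 classes compared these passed the filter through the one in which they were high. DESeq2 called 7 of the 21 and gave 3 no adjusted p. The fit used the 22 sums with library as a block and had 3 residual degrees of freedom, and control 2 was the one library that held both classes. The 15 members that were not tested were below the filter on low counts. The SE given with each log2 fold change was derived from the fit's F value.

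Gstm1 was higher in hepatocyte-like barcodes by 5.0 on the log2 scale (SE 0.49, edgeR's quasi-likelihood test, adjusted p = 1.7e-21), Gsta3 by 5.38 (SE 0.60) and Gstp1 by 4.19 (SE 0.46). Within control 2 alone, the hepatocyte-like sum over the LSEC-like sum was 12.9-fold for Gstm1 (95% interval 9.80 to 17.2), 20.8-fold for Gsta3 (14.5 to 31.1) and 7.62-fold for Gstp1 (6.23 to 9.41), intervals that, like all of those below, cover counting error only. The widest fitted differences belonged to members almost unseen outside hepatocyte-like barcodes, namely Gstm6, Gstm3, Gstm7, Gsta1, Sult1d1 and Ugt2b36, each with 0 to 1 UMI in 4 or more of the 5 LSEC-like sums. Since control 2 held 0 LSEC-like UMIs of Gstm6, Ugt2b36 and Gstm3, the counts there bound the difference at 3 UMIs per library, as at least 7.53-fold, 4.86-fold and 4.63-fold higher. The smallest called difference was that of Gsto1, an omega GST that also reduces dehydroascorbate, at 2.31 on the log2 scale (SE 0.58, edgeR's quasi-likelihood test, adjusted p = 2.6e-04).

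3 tested members were not called. Gstm2, a mu GST, did not follow its neighbours: it stood at 124 CPM in hepatocyte-like barcodes of HFHC 3 and 46.3 CPM in those of control 2, against 114 CPM in LSEC-like cells of HFHC 4 and 170, 140, 128 and 64.3 CPM in those of controls 1 to 4. The ranges overlapped and the log2 fold change was -0.45 (SE 0.52, edgeR's quasi-likelihood test, adjusted p = 0.53), while within control 2 the hepatocyte-like sum was 0.331 of the LSEC-like one (0.183 to 0.627). Gstk1, the mitochondrial and peroxisomal kappa GST, had 126 and 55.5 CPM in the same hepatocyte-like sums, against 44.9 CPM in LSEC-like cells of HFHC 4 and 37.8 to 97.5 CPM in controls, and was not called (adjusted p = 0.17, edgeR). The last of them, Gstm5, reached an adjusted p of 0.054 in edgeR's test.

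Genes that feed or extend conjugation were mostly high in the same barcodes. All 5 tested genes of cofactor supply were higher in hepatocyte-like barcodes than in LSEC-like cells, with Ugp2 and Ugdh of UDP-glucuronic acid synthesis at 4.33 and 4.66 on the log2 scale (SE 0.68 and 0.75) and Gclm of glutathione synthesis at 3.89 (SE 0.63). Both tested microsomal glutathione transferases, Mgst1 and Mgst3, and all 8 tested other conjugating enzymes, among them Gnmt, were higher too. The 3 lists held 9, 3 and 10 genes, and the rest of them were not tested. Over all genes, 25.3% were called higher and 21.1% lower. As for the members, a gene could pass the filter on low counts through hepatocyte-like barcodes, so these counts support nothing on their own. None of 2 deconjugating enzymes and none of 2 export transporters was called. Of 5 tested NRF2 targets that are no members, 1 was higher (Txnrd1) and 1 lower (Akr1b8), and of 5 sensors and regulators 3 were higher (Hnf4a, Cebpa and the bile acid receptor Nr1h4) and 1 was lower, the dioxin receptor Ahr at -3.42 (SE 0.94).

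Across the other named classes, 10 member differences from LSEC-like cells were called in 6 classes, and none in 3 classes. Cholangiocyte-like cells had 2 members with an unadjusted p under 0.05 (background 0.471% of genes called higher and 0.614% lower), macrophage or monocyte-like cells had 1 (0.0818% and 0.123%) and neutrophil-like cells had 4 (2.39% and 2.13%), and DESeq2 called 0 members in them. DESeq2 gave no adjusted p to 18 of the 21 members in cholangiocyte-like cells and to 15 in neutrophil-like cells, so its count of 0 there rests on the few that had one. The endothelial classes differed in single members. In vascular endothelial-like cells Gstm5 had 130 CPM in HFHC 4 and 129 CPM in control 2, against 9.62 CPM in LSEC-like cells of HFHC 4 and 0, 26.2, 3.8 and 12.9 CPM in those of controls 1 to 4, and it was the 1 member called higher (2.88 on the log2 scale, SE 0.88, edgeR's quasi-likelihood test, adjusted p = 0.033, background 1.66% higher and 1.98% lower). These levels rest on 7 and 5 UMIs, and the adjusted p missed the threshold in 4 of the alternatives, one of them the fit without HFHC 4, where the fold change was 2.02. Gstm2 was also high there, at 278 CPM in HFHC 4 and 284 CPM in control 2, above all 5 LSEC-like sums, but was not called (adjusted p = 0.47, edgeR). In lymphatic endothelial-like cells, summed in control 4 only, Gstm1 stood at 615 CPM against 167 CPM in LSEC-like cells of the same library, a ratio of 3.68 (2.00 to 7.29) and a called difference of 1.94 on the log2 scale (SE 0.62, edgeR's quasi-likelihood test, adjusted p = 0.032, background 2.72% higher and 3.81% lower) that was lost in 4 alternatives. Sult1a1 was at 439 CPM there and at 141 CPM in LSEC-like cells of control 4, a ratio of 3.11 (1.58 to 6.66), and was not called in the fit (adjusted p = 0.14, edgeR).

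Mesothelial-like cells were named for markers of the lining of the liver surface. These markers summed to 5308 CPM in HFHC 1 and 4825 CPM in control 1. Mesenchymal markers summed to 5207 and 6971 CPM in the same sums, and cholangiocyte markers to 3198 and 2652 CPM. Whether other cell types were mixed in was not tested. In the fit, 2 alpha GSTs set this class apart from LSEC-like cells. Gsta3 had 258 CPM in HFHC 1 and 413 CPM in control 1, and Gsta4, the alpha GST that clears 4-hydroxynonenal, had 180 and 253 CPM in the same libraries, while LSEC-like cells of control 1 held 0 UMIs of both. LSEC-like cells of HFHC 4 had 3.21 CPM of Gsta3 and 0 of Gsta4, and those of controls 2 to 4 had 253, 2.53 and 12.9 CPM of Gsta3 and 8.74, 0 and 0 CPM of Gsta4, so that Gsta3 in LSEC-like cells of control 2 was about as high as in mesothelial-like cells of HFHC 1. Both were called (adjusted p = 8.4e-05 for Gsta3 and 0.0092 for Gsta4 in edgeR's quasi-likelihood test, background 2.39% higher and 3.03% lower), and within control 1 the counts of 31 and 19 UMIs bound them as at least 7.28-fold and 4.46-fold higher, at a floor of 3 UMIs per library. The call of Gsta3 was lost with DESeq2 and without the library block, where its log2 fold change was 3.0 against 9.34 in the fit, and it was 1.83 with barcode copies kept. DESeq2 called 0 members in this class and gave 15 of 21 no adjusted p. Gstt1 stood at 483 CPM in HFHC 1 and 387 CPM in control 1, beside 526 CPM in hepatocyte-like barcodes, and was not called (adjusted p = 0.058, edgeR). Hepatocyte transcripts were measured in the same sums. The fixed hepatocyte markers summed to 1066 CPM in HFHC 1 (8 of 11 detected) and 160 CPM in control 1 (5 of 11 detected), and against them Gsta4 in HFHC 1 was 5.94 times (3.24 to 10.2) its ratio in hepatocyte-like barcodes of HFHC 3, while Gsta3 was 0.762 times (0.461 to 1.21), an interval that includes 1. In control 1 both lay above it, Gsta3 at 8.13 times (4.06 to 17.4) and Gsta4 at 55.8 times (25.6 to 127). Of other hepatocyte transcripts, Fabp1 was at 11.2 CPM in HFHC 1 and 13.3 CPM in control 1, and Bhmt was at 0 in both. The part of hepatocyte RNA in the Gsta3 level of HFHC 1 was not tested further.

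Cholangiocyte-like cells, summed in HFHC 1 and HFHC 2, had Gstm5 at 173 and 149 CPM, the highest levels of that gene in any class, and Gstt1 at 173 and 236 CPM. The fixed hepatocyte markers summed to 2068 CPM (9 of 11 detected) and 2653 CPM (7 of 11 detected) in these sums, more than in any other named class but hepatocyte-like barcodes. Against them and relative to hepatocyte-like barcodes of HFHC 3, Gstm5 stood at 28.4 times (15.9 to 48.9) in HFHC 1 and 19.0 times in HFHC 2, and Gstt1, also a gene of hepatocyte-like barcodes, at 2.03 times (1.21 to 3.22) and 2.15 times (1.59 to 2.88). Other hepatocyte transcripts (Bhmt, Fabp1, Uox and Fbp1) summed to 0 CPM in HFHC 1 and 8.74 CPM in HFHC 2. In hepatocyte-like barcodes of HFHC 3 they summed to 46108 CPM. How much hepatocyte RNA the cholangiocyte-like sums held therefore depended on the transcripts used and was not tested. Sult2b1, a sulfotransferase of cholesterol and other 3-beta-hydroxysteroids, was detected in this class and in no other sum, at 77.9 and 65.6 CPM from 9 and 15 UMIs. As both libraries were on the HFHC diet and none of the LSEC-like cells of these 2 mice were summed, class and mouse cannot be told apart for these levels.

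Basophil or mast-like cells stood out among the immune classes by Gstm1, at 1496 CPM in HFHC 3 and 1683 CPM in control 2, higher than in every other class but hepatocyte-like barcodes. The difference from LSEC-like cells was 1.91 on the log2 scale (SE 0.47, edgeR's quasi-likelihood test, adjusted p = 7.0e-04, background 6.42% higher and 9.7% lower), and within control 2 the ratio was 3.70 (2.54 to 5.42). 3 members were lower in the same class: Gstp1 at 147 CPM in HFHC 3 and 99.0 CPM in control 2, a log2 fold change of -1.89 (adjusted p = 0.0065), Gstm2 with 2 and 0 UMIs (adjusted p = 0.0020), and Gsto1 with 0 UMIs in both libraries (adjusted p = 0.0075), all in edgeR's test. Without HFHC 3 the calls of Gstm2 and Gsto1 were lost, and with DESeq2 those of all 3. B-like cells and T or NK-like cells differed from LSEC-like cells in Gstm2 alone, which had 1 and 0 UMIs in B-like cells of HFHC 3 and control 2 (adjusted p = 6.2e-04, background 5.93% higher and 10.7% lower) and 2 UMIs in T or NK-like cells of HFHC 3 (adjusted p = 2.4e-04, background 2.72% higher and 3.99% lower), both in edgeR's test. The call in B-like cells was lost with DESeq2. A further set of 16 barcodes of control 2, led by haemoglobin genes together with Thbs1, Itga6 and Slc6a4, was left without a name. It had 6 members called higher than LSEC-like cells (background 6.24% higher and 3.64% lower), among them Gsta3, Gstm1 and Sult2a8, and 4 hepatocyte transcripts (Bhmt, Fabp1, Uox and Fbp1) summed to 6286 CPM in it, against 1608 CPM in LSEC-like cells of the same library.

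The libraries with hepatocyte-like barcodes also held hepatocyte transcripts in every other class, so each member was set against the fixed hepatocyte markers. If its UMIs in a class came as hepatocyte RNA alone, and hepatocyte transcripts kept their proportions, their ratio to those markers would equal that in hepatocyte-like barcodes of the same library. The proportions were not constant, and the markers also defined these barcodes. In control 2, Bhmt, Fabp1, Uox and Fbp1 summed to 40267 CPM beside 20693 CPM of fixed markers in hepatocyte-like barcodes. In LSEC-like cells it was 1608 beside 1232 CPM. An odds ratio can therefore leave 1 for this reason too. In T or NK-like cells of HFHC 3 the abundant members were near the hepatocyte ratio: Gstm1 had 83 UMIs with 83.4 at that ratio (odds ratio 0.996, 0.751 to 1.31), Gsta3 52 with 47.0 (1.11, 0.789 to 1.53) and Gstp1 38 with 35.3 (1.08, 0.732 to 1.55). Gsta3 in LSEC-like cells of control 2 had 29 UMIs and 36.0 at the hepatocyte ratio (0.806, 0.520 to 1.21), the library in which Gsta3 stood at 253 CPM while the other 4 LSEC-like sums had 0 to 12.9 CPM. These 4 intervals include 1, and so did those against 4 other hepatocyte transcripts (Bhmt, Fabp1, Uox and Fbp1), where Gstm1, Gsta3 and Gstp1 of T or NK-like cells stood at 1.16, 1.29 and 1.25 and Gsta3 of LSEC-like cells of control 2 at 1.20 (0.782 to 1.79). An interval that includes 1 does not show where the UMIs came from.

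Other members exceeded that ratio. Gstm1 in basophil or mast-like cells had 102 UMIs in HFHC 3, with 29.3 at the hepatocyte ratio (3.48, 2.47 to 4.97), and 68 in control 2, with 9.89 (6.87, 4.50 to 10.7). In HFHC 3 a Gstm1 UMI was found in 24 of 26 basophil or mast-like cells (92.3%, Wilson interval 75.9 to 97.9%) and in 50 of 66 T or NK-like cells (75.8%, 64.2 to 84.5%), at median depths of 2464 and 2435 UMIs per cell. In LSEC-like cells of control 2, Gstm2 had 16 UMIs with 0.315 at the hepatocyte ratio (50.7, 26.1 to 94.0), and Gstp1 97 with 44.0 (2.20, 1.68 to 2.88). Gstm1 had 52 with 39.8 (1.30, 0.929 to 1.81) against the fixed markers, and 1.95 (1.40 to 2.66) against the other 4 transcripts, so its excess there depended on which transcripts were used. In vascular endothelial-like cells of control 2, Gstm2, Gstm1 and Gstp1 stood at 287, 5.62 and 4.71 times the hepatocyte ratio, with lower limits of 115, 2.95 and 2.44. Gstp3, a pi GST, had 10 UMIs in 10 of 66 T or NK-like cells of HFHC 3, with 1.48 at the hepatocyte ratio (6.76, 3.13 to 13.0), the 1 member above it there among the 4 described.

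**Figure D2:**
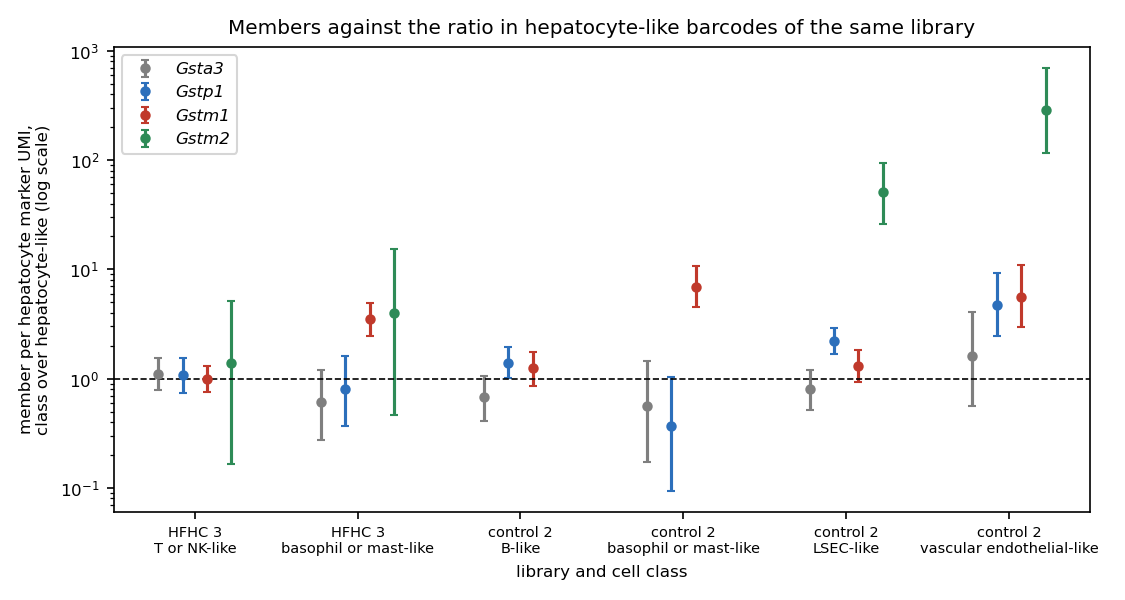
Odds ratio of Gstm1, Gsta3, Gstp1 and Gstm2 to the fixed hepatocyte markers in 6 sums of HFHC 3 and control 2, relative to hepatocyte-like barcodes of the same library (dashed line at 1), on a log axis with exact 95% intervals; members with 0 UMIs are not drawn. The intervals of Gsta3 include 1 in all 6, Gstm1 lies above 1 in basophil or mast-like cells of both libraries, and Gstm2 lies far above 1 in both endothelial sums.

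The diet comparison in hepatocyte-like barcodes set 1 HFHC library against 1 control library, HFHC 3 with 609 barcodes and 1548029 UMIs and control 2 with 575 barcodes and 972657 UMIs. It has no replicate check, and its ratios describe these libraries and not the diets. Of 33 members with at least 20 UMIs over both, 6 were at least 2-fold higher in HFHC 3 (background 8.35% of 5965 genes) and 6 at least 2-fold lower (background 3.54%), with a median log2 ratio of 0.00 against 0.18 over all genes. Centred on that median gene, 6 and 6 members remained past 2-fold.

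Among GSTs, Gstm3 stood out on the higher side, at 426 CPM in HFHC 3 and 121 CPM in control 2, a ratio of 3.51 (2.88 to 4.31). Gstm2 had 124 and 46.3 CPM (2.68, 1.93 to 3.80), and Gstk1 had 126 and 55.5 CPM (2.27, 1.67 to 3.13). The neighbours of Gstm3 differed less, with ratios of 1.07 for Gstm5, 1.18 for Gstm6, 1.23 for Gstm1, 1.36 for Gstm4 and 1.54 for Gstm7. Gsta1 had 276 CPM in HFHC 3 and 108 CPM in control 2 (2.56, 2.06 to 3.20), but its near-copy Gsta2 had 181 and 244 CPM (0.742), and their sum was 457 CPM in HFHC 3 and 352 CPM in control 2, a ratio of 1.30 (1.14 to 1.48). Gstp1 was lower, at 3036 CPM in HFHC 3 and 6457 CPM in control 2 (0.470, 0.453 to 0.488), Gstp2 followed at 0.292, and the sum of both was at 0.468 of control 2. Gstt3 was at 0.477, Gstt2, just above the limit, at 0.619, and Gstt1 at 0.999. Gsta3 was at 0.766, Gsta4 at 0.817, Gsto1 at 0.865, Gstz1 at 1.02 and Gstp3 at 1.53.

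No UGT member was higher by 2-fold. Ugt2b5 had 20.0 CPM in HFHC 3 and 59.6 CPM in control 2, a ratio of 0.336 (0.210 to 0.528), and Ugt2b1 was at 0.494 with an interval of 0.203 to 1.17 that reached past 1. Ugt3a1 was at 0.658, Ugt2a3 at 0.660, Ugt2b36 at 0.801 and Ugt2b34 at 0.942.

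The SULT genes differed in both directions. Sult2a8 was at 189 CPM in HFHC 3 and 749 CPM in control 2, a ratio of 0.252 (0.219 to 0.289) and the lowest of the 33 members, and its relative Sult2a7 had 2 UMIs in HFHC 3 and 7 in control 2. Sult1d1, a sulfotransferase of catecholamines and eicosanoids in mice, had 315 CPM in HFHC 3 and 126 CPM in control 2 (2.49, 2.04 to 3.06). Sult1e1, the oestrogen sulfotransferase and the neighbour of Sult1d1 on chromosome 5, had 23 UMIs in HFHC 3 and 0 in control 2, which makes it at least 4.82-fold higher at a floor of 3 UMIs per library. Sult1a1, Sult1b1 and Sult1c2 stood at 1.02, 1.15 and 1.49, and Sult5a1 at 0.670. Sult2a7, Sult2b1 and Ugt3a2 were the 3 members with too few UMIs for a ratio to be counted.

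**Figure D3:**
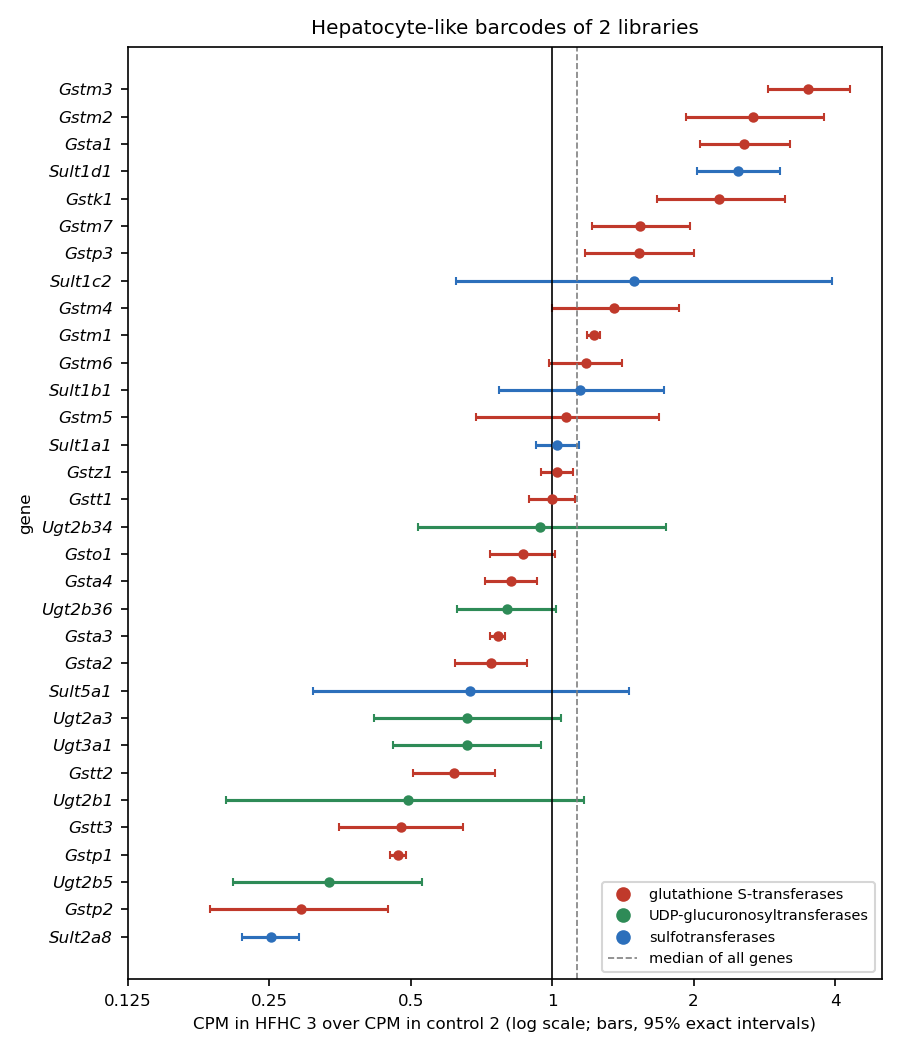
Ratio of HFHC 3 over control 2 in hepatocyte-like barcodes for each member with at least 20 UMIs, on a log axis with exact 95% counting intervals, a solid line at 1 and a dashed line at the median of all genes; Sult1e1, with 0 UMIs in control 2, is not drawn. Gstm3, Gstm2, Gsta1, Sult1d1 and Gstk1 lie above a ratio of 2, and Sult2a8, Gstp2, Ugt2b5, Gstp1, Gstt3 and Ugt2b1 lie below 0.5.

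Other measures differed between these 2 sums as well. Mitochondrial genes gave 0.0827% of the UMIs in HFHC 3 and 4.38% in control 2, the median barcode held 2031 UMIs in HFHC 3 and 1179 in control 2, and Alb was at 3087 and 6389 CPM. Of 6 measured pericentral genes 4 were at least 2-fold lower in HFHC 3 and none higher (median log2 ratio -1.56), among them Glul at 0.260, while none of 8 periportal genes passed 2-fold. Of 6 measured sex-biased transcripts of mouse liver that are no members, 4 were at least 2-fold lower (median -1.50), Elovl3 at 0.250 and Mup20 at 0.326 among them, although both mice were labelled male and neither library held a Xist UMI. The part of these differences in the member ratios was not tested. Among related enzymes, 1 of 9 cofactor genes was at least 2-fold higher and none lower (Gss of glutathione synthesis at 2.07, with Ugp2 at 1.40 and Gclm at 0.925), none of 2 microsomal GSTs (Mgst1 at 1.62) and none of 9 other conjugating enzymes (Gnmt at 0.776) passed 2-fold, and the 1 measured export transporter did not. Of 4 measured NRF2 targets that are no members, Srxn1 was at 2.56 and Txnrd1 at 1.42, and of 12 regulators Arnt and Rxra were at 2.87 and 2.08 and Nfe2l2, which encodes NRF2, at 1.58.

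Position in the lobule was approached by ranking hepatocyte-like barcodes with at least 3 UMIs of zone genes by the pericentral share of those UMIs and comparing the outer 3rds. The pericentral and periportal sets held 203 and 202 barcodes in HFHC 3, and 190 and 270 in control 2 because of ties at a share of 0. The cuts are ranges of a score and not cell types: 166 barcodes of HFHC 3 and 58 of control 2 lay within 0.05 of the share at the upper cut, and 222 and 307 within 0.05 of that at the lower one. Median depth was 1765 UMIs in pericentral and 2200 in periportal barcodes of HFHC 3, and 1455 and 943 in those of control 2.

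Of 27 members with at least 20 UMIs in these barcodes of both libraries, 6 had an interval above 1 for pericentral over periportal in both, and 3 had one below 1. No share over all genes was set beside this interval rule, so the counts say nothing on the members as a set. By a 2-fold limit, 2.49% of 4132 genes were higher in the pericentral set of HFHC 3 and 2.88% lower. In control 2 it was 6.25% and 4.48% of 3216 genes. Sult2a8, Gsta3 and 4 of the 7 mu GSTs were on the pericentral side in both. Gstm2 had a ratio of 2.73 (1.86 to 4.07) in HFHC 3 and 11.2 (3.52 to 56.8, from 35 against 3 UMIs) in control 2, Gstm3 had 2.78 and 4.68, Gstm6 1.63 and 2.56, and Gstm1 1.26 and 1.79. Sult2a8 had 3.60 and 3.58, and Gsta3 1.39 and 1.65 in the same libraries. The other mu GSTs were not: Gstm7 had 1.20 (0.867 to 1.65) in HFHC 3 and 0.559 (0.338 to 0.909), on the periportal side, in control 2, Gstm4 had 1.42 and 0.921 and Gstm5 0.748 and 0.871, with intervals of these 2 genes that included 1. Gstp1 was on the periportal side, at 0.771 (0.718 to 0.828) in HFHC 3 and 0.360 (0.336 to 0.385) in control 2, together with Gsta2 at 0.470 and 0.521 and Sult1a1 at 0.820 and 0.636. Gsta1 and Sult1d1 were below 1 in HFHC 3, at 0.499 and 0.733, while their intervals in control 2 included 1.

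**Figure D4:**
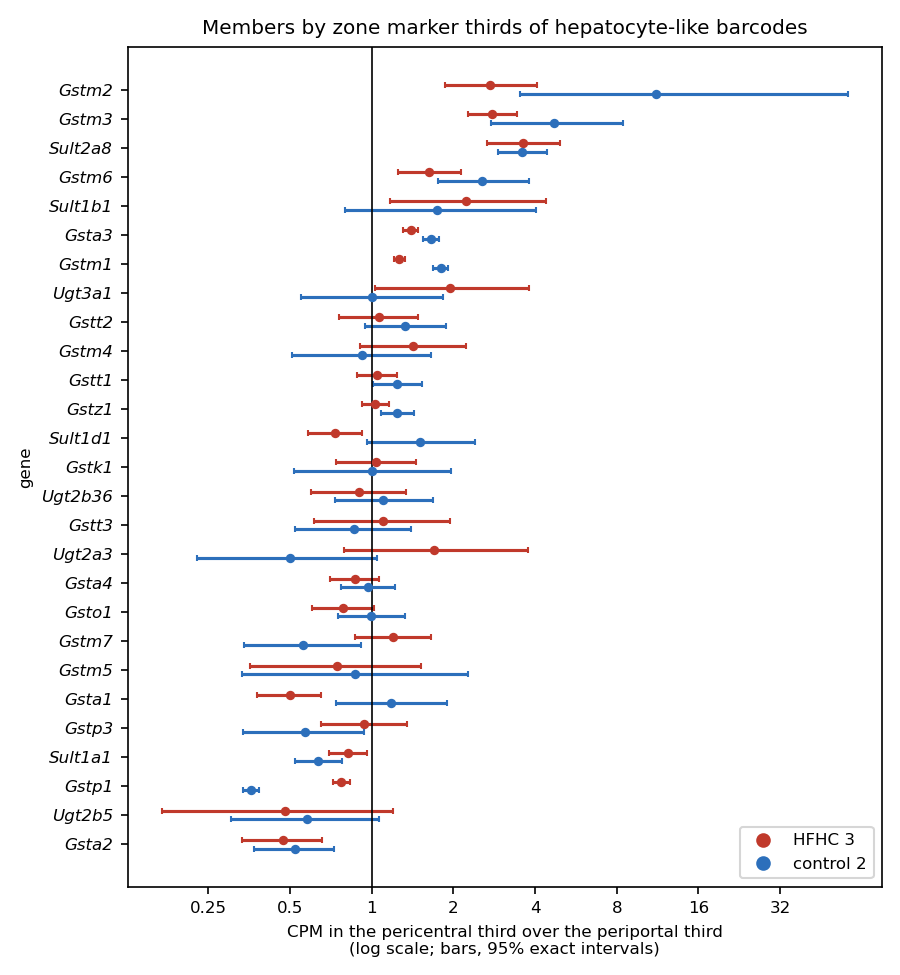
Ratio of pericentral over periportal hepatocyte-like barcodes for members with at least 20 UMIs in HFHC 3 and in control 2, on a log axis with exact 95% counting intervals. Gstm2, Gstm3, Gstm6, Gstm1, Gsta3 and Sult2a8 lie above 1 in both libraries, and Gstp1, Gsta2 and Sult1a1 below 1 in both.

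The ratios of HFHC 3 over control 2 were then taken within each zone. Of the members past 2-fold, 10 had at least 20 UMIs in both zones. Their direction was the same in pericentral and in periportal barcodes, and 6 of them were past 2-fold in each. These 10 were chosen by their ratio in all hepatocyte-like barcodes of the same 2 libraries, from which both zones were drawn. Both counts follow in part from that choice and support nothing on their own. No share over all genes was set beside them. Sult2a8 stood at 0.301 in pericentral and 0.300 in periportal barcodes, and Gstk1 at 2.50 and 2.42. Gstm3 was at 2.97 in pericentral and 5.0 in periportal barcodes, and Gstm2 at 2.02 and 8.28. Gstp1 was at 0.844 in pericentral and 0.393 in periportal barcodes. The cuts were made per library, and the lower one lay at a share of 0.0825 in HFHC 3 and 0 in control 2. Glul, a pericentral gene, had 23 UMIs in the periportal set of HFHC 3 and 0 in that of control 2. The sets of the 2 libraries were thus unlike. Whether a ratio such as that of Gstp1 differs by zone cannot be told apart from this.

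In LSEC-like cells, the class the sort was meant to enrich, the 1 HFHC library was set against 4 controls. HFHC 4 had 535 LSEC-like cells and 935939 UMIs, against 21, 54, 546 and 38 cells and 52867, 114417, 789866 and 77746 UMIs in controls 1 to 4. None of the 7 tested members was called by edgeR's quasi-likelihood test, where 0.187% of 3211 genes were called higher and 0.125% lower. Of the members 3 had an unadjusted p under 0.05, with 197 of all genes, and DESeq2 called 0 of them and gave 6 no adjusted p. With 1 HFHC library the test and the SE hold no spread among HFHC mice.

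Gstp1 was at 235 CPM in LSEC-like cells of HFHC 4, against 359, 848, 687 and 334 CPM in those of controls 1 to 4, and its log2 fold change was -1.17 (SE 0.44, edgeR, adjusted p = 0.28). Gstm1 was at 99.4 CPM in HFHC 4, against 340, 454, 110 and 167 CPM in controls (-1.24, SE 0.52, adjusted p = 0.43, edgeR). Both were lower in HFHC 4 than in each of the 4 controls, with control 3 closest for Gstm1. Hepatocyte markers summed to 137 CPM in HFHC 4 and to 492, 1232, 175 and 476 CPM in controls 1 to 4, lowest in HFHC 4 too, and their part in these 2 differences was not tested beyond the next comparison. Control 3, the control with a similar cell number and a similar marker sum, gave an HFHC 4 to control 3 ratio of 0.342 for Gstp1 (0.291 to 0.401), 0.460 for Gstk1 (0.308 to 0.679), 0.563 for Sult1a1 (0.375 to 0.836), 0.902 for Gstm1 and 0.894 for Gstm2. Of 7 members 2 were at least 2-fold lower and 0 higher in that pair, against 6.06% and 3.97% of 7455 genes, and 1 was lower after centring on the median gene.

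Gstm2 did not separate the diets in LSEC-like cells: 114 CPM in HFHC 4 lay inside the control range of 64.3 to 170 CPM, with a log2 fold change of 0.00 (SE 0.49). Gsto1 was at 60.9 CPM in HFHC 4, against 0 to 96.1 CPM in controls, Gstk1 at 44.9 CPM against 37.8 to 97.5 CPM, and Sult1a1 at 47.0 CPM against 18.9 to 141 CPM, all inside the control range. Gsta3 was at 3.21 CPM in HFHC 4, against 0, 253, 2.53 and 12.9 CPM in controls 1 to 4, and its log2 fold change of -4.19 (SE 1.70, adjusted p = 0.39, edgeR) turned on control 2, where the odds ratio of Gsta3 to the hepatocyte markers was the 0.806 given above. No gene of the related lists was called.

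**Figure D5:**
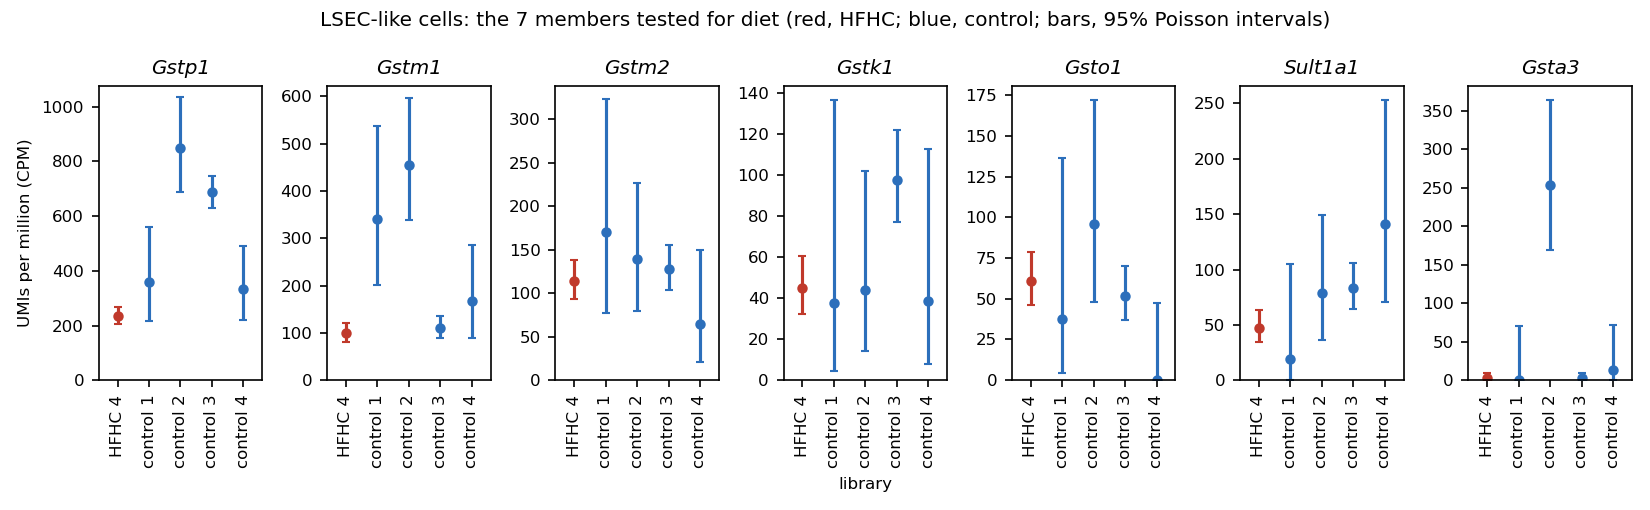
CPM of the 7 tested members in LSEC-like cells of HFHC 4 and of controls 1 to 4, 1 point per library with exact 95% counting intervals. Gstp1 and Gstm1 of HFHC 4 lie below all 4 controls, and the other 5 members lie inside the control range.

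In the other classes summed on both diets, each pair was again 1 library against 1. Gstp1 in mesothelial-like cells had 370 CPM in HFHC 1 and 680 CPM in control 1 (0.545, 0.341 to 0.861), in vascular endothelial-like cells 426 CPM in HFHC 4 and 646 CPM in control 2 (0.659, 0.357 to 1.21), and in B-like cells 228 CPM in HFHC 3 and 461 CPM in control 2 (0.494, 0.203 to 1.04, from 8 and 56 UMIs). Control 2 stands in the hepatocyte-like, vascular endothelial-like and B-like pairs alike, so these are not separate observations, and Gstp1 of B-like cells was near the hepatocyte ratio in HFHC 3 (odds ratio 0.861). Gstm1 of vascular endothelial-like cells had 222 CPM in HFHC 4 and 698 CPM in control 2 (0.318, 0.147 to 0.650). Gstm1 of basophil or mast-like cells was at 0.889. In the mesothelial-like pair Gsta3 was at 0.625, Gsta4 at 0.709, Gstm1 at 0.907, Gstm2 at 1.17 and Gstt1 at 1.25. Over these 4 pairs, 2 of 13 member ratios were at least 2-fold lower, Gstm1 of vascular endothelial-like cells and Gstp1 of B-like cells, and none was 2-fold higher. The background was 9.91% of genes higher and 5.81% lower in the vascular endothelial-like pair, 6.29% and 14.2% in the B-like pair, 7.23% and 6.83% in the mesothelial-like pair, and 9.1% and 6.86% in the basophil or mast-like pair.

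With all cells of a library summed, 4 HFHC mice could be set against 4 controls. None of 13 tested members was called, nor was any of 6666 genes (0% called in edgeR's quasi-likelihood test and 0 by DESeq2), and 0 members and 54 genes had an unadjusted p under 0.05. Log2 fold changes of the members ranged from -0.78 for Gstp1 to 1.05 for Gstm5. They turned on single libraries: without HFHC 3 the value was -2.44 for Gstp1, -2.34 for Gstm1, -3.91 for Gsta3 and -3.78 for Gstz1, and without control 2 it was 1.17, 2.49, 3.27 and 3.16 for the same genes, none of them called. The spread between mice of 1 diet was far wider: Gstm1 was at 447, 366, 5112 and 118 CPM in HFHC 1 to 4, against 622, 3737, 127 and 408 CPM in controls 1 to 4, high in the 2 libraries rich in hepatocyte-like barcodes. In such sums fewer cells of a type and less RNA per cell cannot be told apart.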

How the data were processed

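Liver non-parenchymal cells of 8 mice were profiled as 10x single-cell libraries, aligned to mm10 with Cell Ranger 3.0.1 and handled in Seurat, per the submitters' processing notes; the deposited values are whole UMI counts, to which the authors applied no normalization. All matrix columns were used. The members, gene lists and tests were chosen with earlier results of these data known. From the counts, barcodes present in several libraries were kept where they had most UMIs. Cells were assigned to a class when at least 2 of its markers were detected and its score (mean of log counts scaled to 10000 per cell, each marker divided by and capped at its 95th percentile) led the next class by 0.1; no doublet caller was run, and cells without such a lead, including those mixed between classes, stayed out. Within a library, the cells of a class were added up where there were 10 or more, and levels are given as CPM. Sums were compared with edgeR 4.0.16 in R 4.3.3 (TMM, filterByExpr, robust quasi-likelihood test, Benjamini-Hochberg adjustment over all genes, threshold 0.05), with library as a block between classes and without a block between diets. Alternatives used DESeq2 1.42.0. Pairs of single libraries received ratios with exact conditional 95% intervals (scipy 1.17.1 in Python 3.11.15), no test, a 2-fold limit and a minimum of 20 UMIs; a count of 0 was bounded with 3 counts per library. Shares of cells carry Wilson intervals. Nothing in the labels says more of replication than 1 library per mouse. Between diets, p-values measure the spread between mice of 1 diet, which for LSEC-like cells is that of the controls alone. Between classes, the library block takes out differences between mice. The p-values there rest on the spread left within libraries, pooled over classes with 3 residual degrees of freedom. In every fit, edgeR's quasi-likelihood test also draws the spread of each gene toward that of all genes. The very small p-values between classes therefore rest on this shared spread and not on 3 degrees of freedom alone. The UMI totals limit the precision of every level. Every member is accounted for, and values per library are given for members with at least 100 UMIs, members past a test, and the member with most UMIs of each family; of the related lists, up to 3 genes with most UMIs were named. The fits were tested on counts simulated with 1 fixed spread for all genes, not matched to the real one, and with changes placed in the more abundant genes. Of 2-fold changes, 6% were recovered between hepatocyte-like barcodes and LSEC-like cells, 4% between diets in LSEC-like cells and 38% over all cells. Of 4-fold changes it was 52%, 62% and 100%. A member that was not called can therefore still differ by 2-fold. Alternatives covered normalization, the test, the filter on low counts, barcode copies, gate settings, cell minimum, genes per cell, library subsets, blocks and leaving out each library.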

Additional observations from a re-analysis of the deposited data

Results flagged for a closer look

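In 12 of 33 groups of 4 libraries checked, 1 library stood apart from the other 3 by Dixon's criterion, where chance gives about 5% of groups. The groups are different genes in the same few sets of 4 libraries and so are not independent. The count of 12 can therefore not be weighed against that 5%. In LSEC-like cells of the controls, Gsta3 in control 2 (253 CPM) and Gstk1 in control 3 (97.5 CPM) stood apart. In the sums over all cells, HFHC 3 stood apart from the other HFHC libraries and control 2 from the other controls for 5 members, and these are the 2 libraries rich in hepatocyte-like barcodes: Gsta3 at 2877 CPM in HFHC 3 and 3259 CPM in control 2, Gstm1 at 5112 and 3737 CPM, Gsto1 at 186 and 194 CPM, Gstp1 at 2161 and 4082 CPM, and Gstz1 at 801 and 676 CPM.

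Gstm1 was flagged for lying on opposite sides in 2 classes, by small margins. Its ratio of HFHC 3 over control 2 in hepatocyte-like barcodes was 1.23, where the median log2 ratio over all genes was 0.18. In LSEC-like cells HFHC 4 lay below all 4 controls, at 99.4 CPM against 110 CPM in the lowest control. The classes come from different mice, and the difference between them was not tested.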

How the results depend on the processing

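The 18 members called higher in hepatocyte-like barcodes became 7 with DESeq2's Wald test, which gave 3 members no adjusted p, and 15 to 18 when single libraries were left out. The 10 member calls in the other classes became 3 with DESeq2, 22 with barcode copies kept and 30 without the library block, and ranged from 8 to 11 when single libraries were left out. Of the named calls under alternatives, 423 kept direction and side of the threshold, 25 lost the threshold (13 of them with DESeq2), and none reversed. Gstm1 of lymphatic endothelial-like cells was lost without a filter on low counts, with 3 gate markers, with a gate lead of 0.2 and without the block, and Gstm5 of vascular endothelial-like cells without a filter, with at least 500 genes per cell, within the barcode-sharing libraries and without HFHC 4. In LSEC-like cells 0 members were called under every alternative run, while the 10 genes called became 69 with DESeq2, 16 with at least 500 genes per cell, 2 within the other 3 libraries, and 7 to 23 when single libraries were left out (23 without control 1, 16 without control 3, 17 without control 4). Over all cells, 0 members were called under every alternative run, and 1 gene was called within the other 3 libraries. The 6 higher and 6 lower members of hepatocyte-like barcodes were 6 and 4 with at least 500 genes per cell or the wider lead. The 2 lower members of the other classes were 0 with at least 500 genes per cell and 1 with the wider lead, where the vascular endothelial-like pair fell under the cell minimum and gave no ratio, so that Gstm1 of that class was not compared. The cause of the other changes was not tested.

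Same-numbered HFHC and control libraries, all cells summed, correlated at 0.498, -0.081, -0.416 and 0.161 in their deviations from the mean of their diet. Cell makeup differed widely between these sums, so the correlations cannot tell whether the numbers pair the mice. The sample titles also give the mouse of HFHC 4 another number. A replicate block left 0 members called over all cells. A replicate block in LSEC-like cells left no residual degrees of freedom. The class comparison could not be fitted with at least 20 cells per sum, within the other 3 libraries or without control 2, and the LSEC-like comparison could not be fitted within the barcode-sharing libraries or without HFHC 4. The pairs of single libraries allow no other test, block or left-out library. Depth limits the 7 UGT members most, at 757 UMIs in all.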
